A study of Rattus norvegicus with 2 samples.

Results

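Muscle phosphagen, adenylate and oxygen-store genes were examined in rat esophageal tissue after the histone deacetylase inhibitor OSU-HDAC42 and after vehicle. The genes comprised 4 forms typical of striated muscle (Ckm, Ckmt2, Ampd1 and Mb), 3 forms known from other tissues (Ckb, Ampd2 and Ampd3) and the adenylate kinase Ak1. They were chosen by name, and a probe set was used where the platform annotation tied it to a single gene with that symbol. This gave 8 probe sets for 7 of the 8 genes, out of 14217 genes measured on the array, and Ak1 had no such probe set and is not analysed here. All 7 genes reached the expression floor, an intensity of 49.8 on the brighter array, as did 9542 of the 14217 genes. That floor is the median, over all probe sets but the controls, of a probe set's mean intensity.

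The OSU-HDAC42 sample was esophageal tissue of male Sprague-Dawley rats, bought at 5 to 6 weeks of age and given 7 gavage doses of 50 mg/kg, 350 mg/kg in total, and the vehicle sample was the same tissue after vehicle by the same route. The esophagi were collected on day 15, at 24 hours from the last dose. Each group had 1 array, an Affymetrix rat genome chip. The labels do not state how many rats gave RNA to each array or which layers of the esophagus were kept. Without replicates the values carry no error between animals and no p-value, and a difference between the arrays cannot be told apart from a difference between individual rats or dissections.

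Phosphocreatine is the fast energy reserve of muscle: creatine kinases move a phosphate between creatine and ATP, at the myofibril (Ckm) and at the mitochondrion (Ckmt2), while Ckb serves brain, smooth muscle and many epithelia. When a working fibre splits ATP faster than it is remade, adenylate kinase turns ADP into ATP and AMP, and AMP deaminase removes the AMP as IMP, a step that opens the purine nucleotide cycle. Ampd1 encodes the muscle isoform of that deaminase, Ampd2 the isoform first known from liver and Ampd3 the isoform of red blood cells, which other tissues also express. Mb encodes myoglobin, the oxygen store of oxidative striated fibres. In the rat the outer muscle coat of the esophagus is skeletal muscle, below a squamous epithelium and a thin smooth muscle layer.

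The sequences before the transcription starts of 5 genes are printed because their differences between the arrays are the results described next, with the muscle forms set beside Ckb. They are the 250 bases before the start that RefSeq annotates on GRCr8, and such a sequence was used for 6 of the 8 genes. The positions are chr1:88189211-88189460 on the plus strand for Ckm, chr2:24845512-24845761 on the minus strand for Ckmt2, chr2:193287082-193287331 on the plus strand for Ampd1, chr7:110647743-110647992 on the minus strand for Mb and chr6:136553465-136553714 on the minus strand for Ckb. Capitals mark matches on either strand to the E-box CANNTG, the core letters bound by myogenic and other basic helix-loop-helix factors, and to the MEF2 motif, that of the myocyte enhancer factors, which is the run of 10 capitals in Ampd1 and in Ckb. Sequences read 5′ to 3′ towards the start.
Ckm: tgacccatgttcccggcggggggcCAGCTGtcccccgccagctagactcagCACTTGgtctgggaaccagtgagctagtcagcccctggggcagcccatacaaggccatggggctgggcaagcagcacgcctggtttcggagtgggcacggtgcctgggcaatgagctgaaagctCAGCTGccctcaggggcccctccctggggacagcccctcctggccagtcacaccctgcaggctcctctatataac
Ckmt2: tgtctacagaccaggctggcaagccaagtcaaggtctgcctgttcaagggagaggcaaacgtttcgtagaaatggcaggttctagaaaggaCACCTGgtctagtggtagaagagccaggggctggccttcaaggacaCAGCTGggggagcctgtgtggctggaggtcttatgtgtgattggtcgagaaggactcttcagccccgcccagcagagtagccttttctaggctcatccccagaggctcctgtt
Ampd1: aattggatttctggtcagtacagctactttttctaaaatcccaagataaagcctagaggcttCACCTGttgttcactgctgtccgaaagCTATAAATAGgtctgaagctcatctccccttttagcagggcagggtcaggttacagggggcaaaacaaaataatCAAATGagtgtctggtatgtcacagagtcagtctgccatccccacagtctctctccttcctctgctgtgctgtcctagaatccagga
Mb: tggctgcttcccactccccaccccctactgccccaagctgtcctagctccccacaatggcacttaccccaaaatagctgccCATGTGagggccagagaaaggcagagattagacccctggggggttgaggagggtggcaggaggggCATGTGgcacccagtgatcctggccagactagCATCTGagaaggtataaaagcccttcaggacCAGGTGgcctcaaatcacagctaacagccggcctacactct
Ckb: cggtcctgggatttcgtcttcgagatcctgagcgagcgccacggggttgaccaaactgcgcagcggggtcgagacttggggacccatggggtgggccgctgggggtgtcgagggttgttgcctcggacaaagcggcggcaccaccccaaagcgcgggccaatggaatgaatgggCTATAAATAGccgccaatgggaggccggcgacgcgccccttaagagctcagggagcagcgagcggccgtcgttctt

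All 4 muscle forms held at least 1 E-box in this window, with 3 matches in Ckm, 2 in Ckmt2, 2 in Ampd1 and 4 in Mb, whereas neither Ckb nor Ampd2 held one. Such a match was common, since 65.5% of 33469 RefSeq windows of the same length held one. The E-box CAGCTG occurred 2 times in Ckm and 1 time in Ckmt2, and 12.0% of all windows held it. The MEF2 motif was found in 2.96% of all windows. It lay in Ampd1 from 161 to 152 bases before the start and in Ckb from 76 to 67 bases before it, with the same letters CTATAAATAG in both. In both genes the match overlapped the TATA box letters TATAAA, which 12.9% of windows held, and Mb held TATAAA from 60 to 55 bases before its start. The CArG box, the motif of serum response factor, was in none of the 6 windows and in 501 of all 33469 windows. These matches describe letters and not bound sites.

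**Figure D1:**
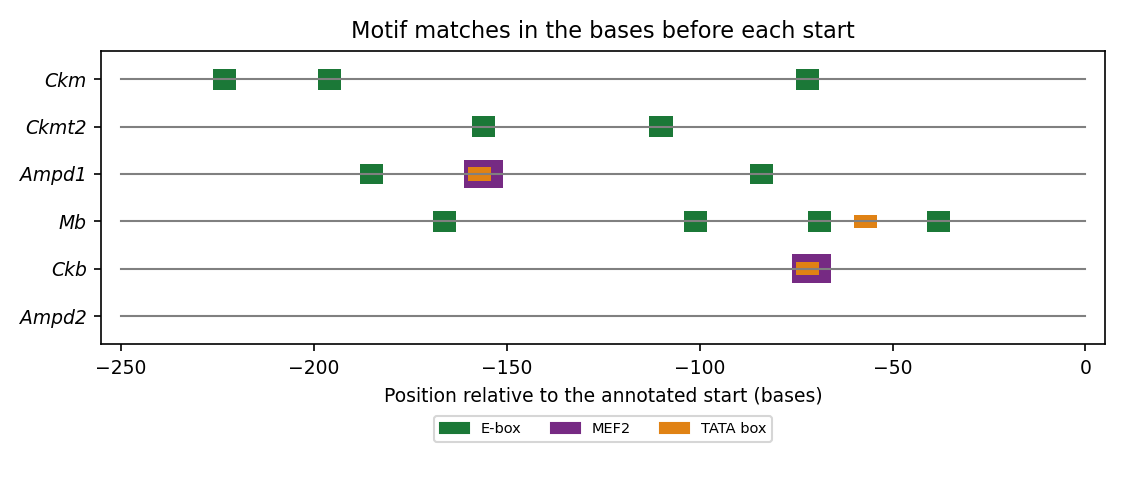
Motif matches in the 250 bases before the RefSeq start of 6 genes, with position relative to the start in bases on the horizontal axis and a line per gene, muscle forms at the top. Green boxes are E-boxes, purple boxes MEF2 matches and orange boxes TATA boxes: each of the 4 muscle forms has a green box, Ckb and Ampd2 have none, and the purple boxes lie in Ampd1 and Ckb.

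The muscle forms were lower in the OSU-HDAC42 sample, whereas the forms of other tissues differed by less than 2-fold, as did Mb among the muscle forms. The 4 muscle forms had a median log2 difference, OSU-HDAC42 minus vehicle, of -1.30, which is 2.46-fold lower. The 3 forms of other tissues had a median of -0.27, and the median over all 9542 genes above the floor was -0.027, with an SD of 0.48 across genes. At least 2-fold lower were 3 of the 4 muscle forms and 0 of the 3 other forms, where 3.18% of all genes above the floor were (303 of 9542). At least 2-fold higher were 0 of the 7 genes, where 1.88% of all genes above the floor were. All 4 muscle forms and none of the others were at least 1.5-fold lower, as were 10.9% of all genes, and Ampd1 alone of the 7 was at least 3-fold lower, as were 0.608% of all genes. The median of the forms of other tissues is the value of Ampd2, whose probe sets went in opposite directions: it was -0.051 with the probe sets of a gene averaged and 0.17 with the dimmer Ampd2 probe set. Between the medians of the 2 sets of forms the difference was -1.03, and -1.25 and -1.47 under the same choices. For scale, probe sets above the floor that measure the same gene had differences that spread with an SD of 0.29 around their gene's mean, over 2116 genes with several such probe sets. That SD covers probe noise within the arrays and not the spread between animals.

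Ampd1, the muscle AMP deaminase, had the largest difference of the 7 genes. Its intensity was 121 after OSU-HDAC42 and 505 after vehicle, a log2 difference of -2.07 or 4.19-fold lower. The OSU-HDAC42 value was 23.9% of the vehicle value, and 10 genes above the floor, Ampd1 included, were this low or lower.

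Ckm, the creatine kinase of the myofibril, had an intensity of 646 after OSU-HDAC42 and 1783 after vehicle. The log2 difference of Ckm was -1.46 (2.76-fold lower), and 83 of the 9542 genes differed by as much or more in this direction. Ckmt2, the mitochondrial creatine kinase of striated muscle, which hands phosphocreatine from the mitochondrion to the cytosol, had 162 after OSU-HDAC42 and 357 after vehicle, a log2 difference of -1.14 (2.20-fold lower). The 2 creatine kinases of muscle thus lay 0.33 apart on the log2 scale, close to the spread between probe sets of 1 gene. Mb was lower as well but did not reach 2-fold. Its intensity was 1574 after OSU-HDAC42 and 2577 after vehicle, a log2 difference of -0.71 (1.64-fold lower), and 693 genes above the floor were this low or lower.

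Among the forms of other tissues, Ckb was the gene that was higher in the OSU-HDAC42 sample. The brain-type creatine kinase had an intensity of 1134 after OSU-HDAC42 and 911 after vehicle, a log2 difference of 0.32 (1.24-fold higher). Ampd3, the AMP deaminase of red blood cells, had 2038 after OSU-HDAC42 and 2833 after vehicle, a log2 difference of -0.47 (1.39-fold lower). Ampd2 was measured by a pair of probe sets that went in opposite directions. Its brighter one had 101 after OSU-HDAC42 and 122 after vehicle (log2 difference -0.27), and its dimmer one, under the floor on both arrays, had 33.6 after OSU-HDAC42 and 29.9 after vehicle (log2 difference 0.17). No direction can be given for Ampd2 from these values. Bright genes differed less between the arrays: over the 5253 genes whose mean intensity exceeded the 75th percentile, the SD of the differences was 0.39. The difference of Ckb was smaller than this SD and that of Ampd3 larger.

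**Figure D2:**
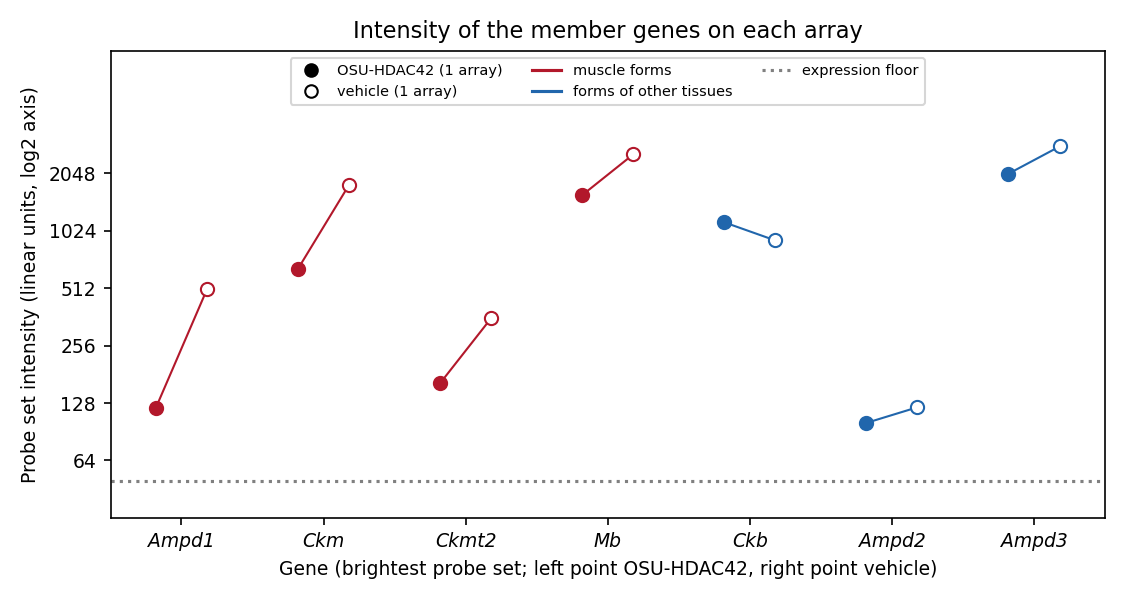
Intensity of the brightest probe set of each of the 7 genes, with genes on the horizontal axis and intensity on a log2 vertical axis. Filled points are the OSU-HDAC42 array and open points the vehicle array, 1 array each with no error bars; the filled point is lower for all 4 muscle forms (red) and for Ampd2 and Ampd3, and higher for Ckb (blue).

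Set within each enzyme family, the muscle form was lower relative to the form of other tissues. The log2 difference of Ckm lay 1.78 below that of Ckb, which is a 3.44-fold change in their ratio between the arrays. That of Ckmt2 lay 1.45 below Ckb, but only 0.38 below Ckmt1, the mitochondrial form outside striated muscle described further below. For the AMP deaminases, the log2 difference of Ampd1 lay 1.79 below that of the brighter Ampd2 probe set and 1.59 below that of Ampd3, a 3.01-fold change in the ratio of Ampd1 to Ampd3. These contrasts do not depend on how the arrays were scaled by a single factor. They show unequal change within a family and not that Ckb, Ampd2 or Ampd3 stayed the same.

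**Figure D3:**
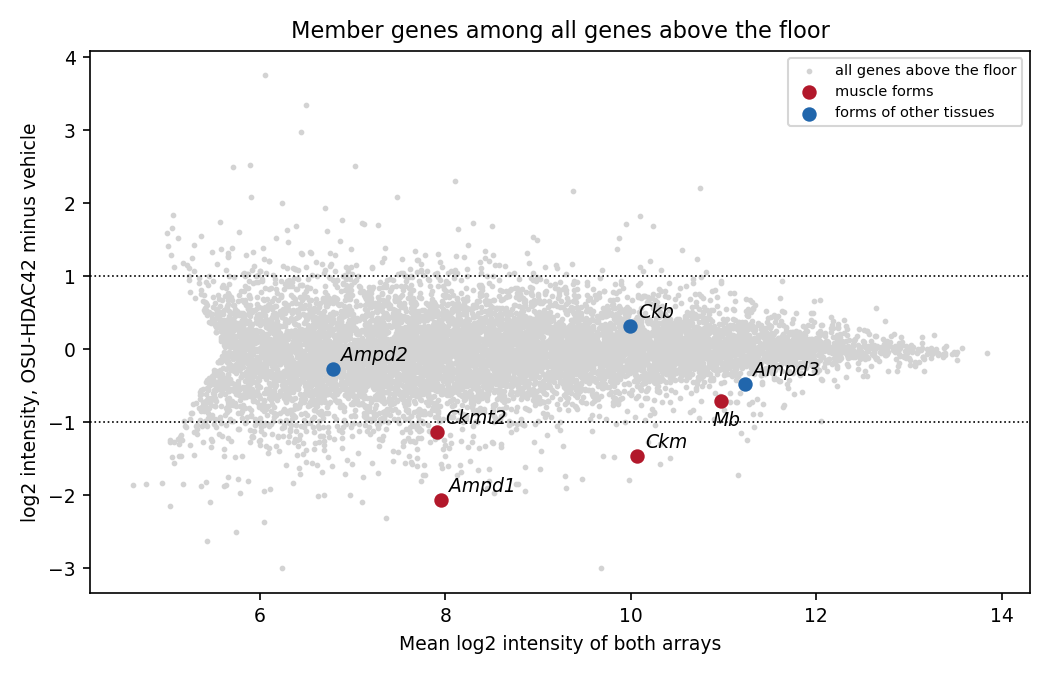
Log2 difference (OSU-HDAC42 minus vehicle) against mean log2 intensity for the 9542 genes above the floor (grey), with the muscle forms in red, the forms of other tissues in blue and dotted lines at 2-fold. Ampd1, Ckm and Ckmt2 lie below the lower line, Mb lies between the lines below the bulk of genes, and Ckb, Ampd2 and Ampd3 lie within the grey cloud.

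Skeletal muscle markers were lower together with the muscle forms. All 22 listed markers were above the floor and all 22 were lower in the OSU-HDAC42 sample, 13 of them at least 2-fold, with a median of -1.19 and a range from -2.09 to -0.051, where 52.8% of all genes above the floor were lower by any amount. Their summed intensity was 21073 after OSU-HDAC42 and 41125 after vehicle, and none of them was near 0 on either array. Actn3, Myh2 and Myh4 were near the floor after OSU-HDAC42, with 66.6, 67.0 and 60.4, and had 283, 218 and 108 after vehicle. The markers with the largest differences were Actn3, the alpha-actinin of fast fibres, at -2.09 and the sarcomere protein Ttn at -1.94. Next were the myosin-binding protein Mybpc1 at -1.85 and Tcap, a titin cap protein, at -1.80. In such bulk tissue fewer muscle fibres and less of these RNAs per fibre cannot be told apart, and the part of tissue makeup in the differences of Ckm, Ckmt2, Ampd1 and Mb was not tested.

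Against these 22 markers the muscle forms did not sit together. Ampd1 was lower than 21 of the 22 markers, 0.87 below their median. Ckm was lower than 12 of them and Ckmt2 than 10, at 0.27 below and 0.059 above the median. Mb was lower than only 2 and higher than 20, at 0.48 above the median. Ckb was higher than all 22 markers, and Ampd2 and Ampd3 were higher than 21 and 20 of them. Mb (-0.71) and Ampd3 (-0.47) thus held the same rank among the markers. The rank of Mb rests on small gaps, with Ldb3 at -0.72, Mylpf at -0.75 and Myl1 at -0.78. Myh1, higher than Mb on its brightest probe set (-0.29), ran from -0.80 to -0.62 on its others. Slow fibre genes, which mark the fibres richest in myoglobin, gave 5 of 8 members above the floor. Of these 5, 3 were higher and 2 lower, beside 46.8% and 52.8% of all genes above the floor. Their median of 0.0098 is the value of Atp2a2, the brightest, with 4976 after OSU-HDAC42 and 4942 after vehicle. Which cells gave this Atp2a2 signal was not tested, so the median gives no reading of slow fibres. Of the 5, Myl3, a slow and cardiac light chain, differed by -1.27 and the calsequestrin Casq2 by -0.12. The slow troponins Tnnt1 and Tnni1 differed by 0.62 and 0.078. Both were near the floor, Tnnt1 with 77.7 after OSU-HDAC42 and 50.7 after vehicle, Tnni1 with 66.8 and 63.3. The slow myosin Myh7 had 15.3 after OSU-HDAC42 and 16.8 after vehicle, with Tnnc1 and Myl2 also under the floor on both arrays.

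Genes of smooth muscle, where Ckb is the usual creatine kinase, were higher in the OSU-HDAC42 sample. All 10 markers were above the floor and higher, as were 46.8% of all genes above the floor, and 2 of the 10 were at least 2-fold higher, as were 1.88% of all genes. Their median difference was 0.62. They summed to an intensity of 18039 after OSU-HDAC42 and 12045 after vehicle, and none was near 0. The contractile marker Tagln differed by 1.24, Cald1, which binds actin and tropomyosin, by 0.74 and the enteric actin Actg2 by 0.68. Synpo2, an actin-binding protein, had 851 after OSU-HDAC42 and 301 after vehicle on its brightest probe set, while another above the floor differed by -0.44. Fibroblast markers were higher in 6 of 6 cases (median 0.32), beside the same 46.8% of all genes, though some hardly differed. They ran from 0.011 for Col3a1 and 0.056 for Lum to 0.94 for Pdgfra, a receptor for platelet-derived growth factor. Their summed intensity was 20350 after OSU-HDAC42 and 16264 after vehicle. Squamous epithelium markers, of which 9 of 10 were measured, had a median of -0.059 and summed to 55742 after OSU-HDAC42 and 58128 after vehicle. Of the 9, 2 were higher and 7 lower, where 52.8% of all genes above the floor were lower. They ran from -0.69 for Evpl to 0.60 for Ivl. Of 5 endothelial markers 2 were higher and 3 lower (median -0.23), beside 46.8% and 52.8% of all genes above the floor. Vwf, among the lower, reached the floor only on the vehicle array (44.3 after OSU-HDAC42, 85.8 after vehicle). Neuron and glia markers were mostly dim, with 2 of 9 above the floor, the growth-cone protein Gap43 at -0.21 and the tubulin Tubb3 at 0.46. Tubb3 reached the floor only on the OSU-HDAC42 array (55.2, beside 40.3 after vehicle). The 9 neuron and glia markers had a summed intensity of 295 after OSU-HDAC42 and 308 after vehicle. The neuronal genes Elavl4, Snap25 and Nefl and the glial gene Sox10 were under an intensity of 16 on both arrays. Whether smooth muscle content had a part in the difference of Ckb was not tested.

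**Figure D4:**
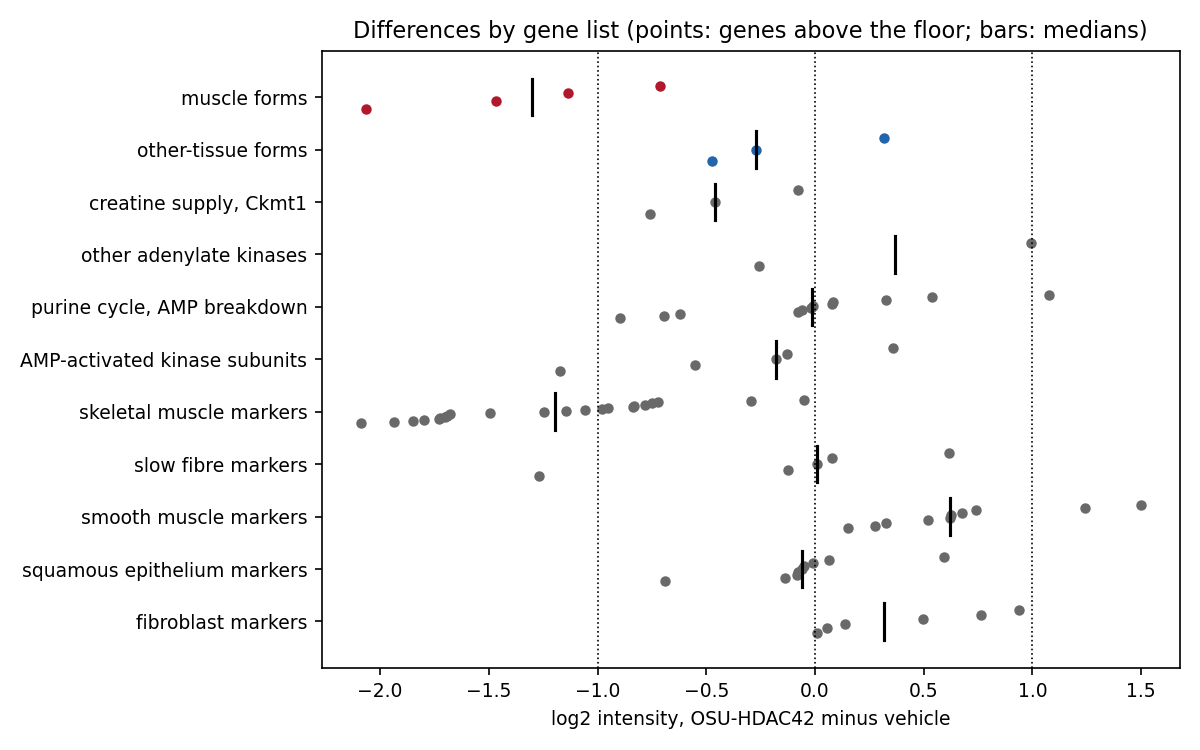
Log2 difference (OSU-HDAC42 minus vehicle) of genes above the floor in 11 lists, 1 point per gene and a black bar at each median, with dotted lines at 0 and at 2-fold. The muscle forms (median -1.30) and the skeletal muscle markers (median -1.19) lie to the left, the smooth muscle markers (median 0.62) to the right, and the forms of other tissues and the purine genes around 0.

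Of 4 further genes of the phosphagen system, 3 were above the floor and had differences below 0 on their brightest probe sets, as had 52.8% of all genes above the floor, and none reached 2-fold (median -0.46). Ckmt1, the mitochondrial creatine kinase of tissues other than striated muscle, had an intensity of 2478 after OSU-HDAC42 and 4190 after vehicle, a log2 difference of -0.76. This form from outside muscle was thus lower by about as much as Mb, and the difference of its muscle counterpart Ckmt2 lay 0.38 below it, a smaller gap than between Ckm and Ckb. Gamt, which makes creatine, differed by -0.46. The creatine transporter Slc6a8 had probe sets at -0.077 and 0.50, so no direction can be given for it. Gatm, which starts creatine synthesis, was under the floor on both arrays.

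Other adenylate kinases were in part dim, and 4 of 8 were matched to a probe set. Ak4, a mitochondrial matrix form, had 275 after OSU-HDAC42 and 138 after vehicle, a log2 difference of 0.99, just short of 2-fold, while Ak3, another matrix form, which uses GTP, had probe sets at -0.26 and 0.056. Ak5 and Ak7 were under 16 on both arrays.

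In the purine nucleotide cycle and AMP breakdown, 12 of 16 genes were measured and all of those reached the floor, with 5 higher and 7 lower (median -0.014). Adss1, the adenylosuccinate synthase of muscle, which takes up the IMP that Ampd1 makes, had 564 after OSU-HDAC42 and 1048 after vehicle, a log2 difference of -0.90. Adss2, the form of other tissues, had 4346 after OSU-HDAC42 and 4098 after vehicle, a log2 difference of 0.085. The difference of Adss1 lay 0.98 below that of Adss2, the same order of muscle form and other form as in the creatine kinases and AMP deaminases. Adsl, which completes the cycle, differed by -0.62. Nt5c2, a cytosolic nucleotidase that prefers IMP and GMP, was the gene of this list past 2-fold: it had 1633 after OSU-HDAC42 and 773 after vehicle, a log2 difference of 1.08, and its other probe set differed by 0.61. The nucleotidase Nt5c differed by -0.70. Ada, Pnp and Xdh, which take purines on towards uric acid, differed by -0.057, -0.011 and -0.017 on their brightest probe sets, and a dimmer probe set of Pnp above the floor differed by 0.64.

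AMP-activated kinase senses the AMP that these enzymes set. Above the floor were 5 of its 7 subunit genes, of which 1 was higher and 4 were lower (median -0.18). Of all genes above the floor, 52.8% were lower. Prkag3, the gamma subunit found mainly in skeletal muscle, had 23.7 after OSU-HDAC42 and 53.3 after vehicle, a log2 difference of -1.17, with only the vehicle value above the floor. The gamma subunits of wider expression, Prkag1 and Prkag2, differed by -0.13 and -0.18, and another Prkag2 probe set above the floor by -0.41. The catalytic subunit Prkaa1 differed by 0.36 and the beta subunit Prkab1 by -0.55.

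Of the globins beside Mb, 3 of 6 were measured. The hemoglobin chain Hbb had 324 after OSU-HDAC42 and 848 after vehicle, a log2 difference of -1.39, on a probe set that may also read its near-identical copies. Cygb, a globin of fibroblast-like cells, had 48.4 after OSU-HDAC42 and 32.6 after vehicle, under the floor on both, as was the neuronal globin Ngb. Of the 5 erythrocyte markers measured, Hbb was the one above the floor, and their summed intensity was 381 after OSU-HDAC42 and 919 after vehicle. The red cell genes Slc4a1 and Epb42 were under 16 on both arrays. The part of blood in the tissue in the difference of Ampd3, the red cell deaminase, was not tested.

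The genes most like the muscle forms were taken as those bright on both arrays, above the 75th percentile of intensities (282), with a log2 difference nearest to the median of the 4 muscle forms. With 1 difference per gene from 2 arrays this likeness is a description. The nearest 5 were the desmosomal cadherin Dsc1 at -1.29, the muscle phosphoglycerate mutase Pgam2 at -1.32, the phospholipase Plcd1 at -1.27, Myl3 at -1.27 and the fast troponin Tnni2 at -1.24.

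The control probe sets for RNA integrity gave a 3′ to 5′ ratio of beta-actin of 6.29 after OSU-HDAC42 and 7.76 after vehicle, and of GAPDH of 2.09 after OSU-HDAC42 and 2.32 after vehicle. The number of arrays limits the precision of all these values.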

How the data were processed

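Total RNA from esophageal tissue was hybridised to 1 array per group as biotin-labelled cRNA, per the labels' protocols. Each deposited value is the intensity of a probe set, read as linear from its range. Per the submitters' processing notes GCOS and RMA were used, in roles and versions not given there. How the arrays were scaled to each other is not given in the sources used here. A shift shared by most genes could therefore have been removed.

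Of 31099 probe sets, 57 controls were set aside, and 20826 of the others carried 1 gene symbol in the platform annotation, which was updated by gene ID to the GRCr8 RefSeq gene table. Intensities under 16 were raised to 16 before log2, and each gene was represented by its brightest probe set. Differences are OSU-HDAC42 minus vehicle, counted when at least 2-fold and above the floor. Calculations used pandas 2.3.3 and statsmodels 0.14.6 and were tested on simulated data. Alternatives covered low values, scaling (each array centred, quantile normalization, lowess), probe set choice, floor and threshold.

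The members and lists were chosen with earlier results of these data known. Named genes were all members, list genes past 2-fold or with the largest differences, related pathway genes, and the 5 genes nearest to the muscle forms' median. No replicates exist, so no test was run.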

Additional observations from a re-analysis of the deposited data

How the results depend on the processing

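The 4 muscle forms kept their direction under all 8 alternatives of low values, scaling and probe set choice, with medians from -1.31 to -1.25. Over these 8, Ampd1 ran from -2.07 to -1.93, Ckm from -1.49 to -1.44, Ckmt2 from -1.14 to -1.06 and Mb from -0.75 to -0.69, while Ckb ran from 0.28 to 0.34 and Ampd3 from -0.50 to -0.45. For the muscle forms, raising low values to 32, raising none, averaging probe sets and using only plain ones could not change a value. Their intensities were at least 121, each had a single plain probe set, and their median stayed at -1.30. Of 102 values recomputed over 11 alternatives, 98 stayed close to the reported value and 4 moved, of which 2 changed sign. The 98 include values that an alternative could not change, such as these. With only plain probe sets, which leaves Ampd2 its dimmer probe set under the floor, the difference of Ampd2 and the median of the forms of other tissues both turned from -0.27 to 0.17, and the muscle forms lay 1.47 below them (-1.47). At a 3-fold threshold 1 gene, Ampd1, was lower, and at 1.5-fold all 4 muscle forms were, where 0.608% and 10.9% of all genes above the floor were. The median of all genes was 0 as deposited and stayed at 0 under the 3 scalings, so it gives no reading of them. Over the genes above the floor the median was -0.027 as deposited. Centring moved it to -0.0049, whereas it was -0.030 after the quantile step and -0.037 after lowess. No paired analysis was possible because the groups hold a single array each.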
